A study of Homo sapiens with 9 samples.

Results

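The insulin-like growth factor (IGF) binding proteins, the receptors for insulin and IGFs, and the insulin receptor substrates were followed in MDA-MB-231, a human breast cancer cell line of mesenchymal type. The 10 genes are IGFBP2, IGFBP3, IGFBP4, IGFBP6, IGFBP7, IGF1R, IGF2R, INSR, IRS1 and IRS2. Every array probe annotated to one of them was taken, which gave 12 probes of 48799 on the array (10 of 18850 genes), with 2 probes each for IGFBP3 and IRS1 and 1 for each other gene. The genes were selected by family, with earlier results of these data known, and were chosen in part on the intensity of IGFBP3, which had been lower with one of the siRNAs. That difference is therefore given as a description, with no test.

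Cells were harvested 72 h after transfection. The groups, named by their siRNA, were Luc (luciferase, the control), KD1 (KDM5A siRNA 1) and KD2 (KDM5A siRNA 2), and each had 3 arrays, 9 in all. KDM5A is a demethylase of histone H3 lysine 4. All groups share the parental line, the transfection and the time, and the labels do not say whether the arrays of a group came from separate cultures, so the p-values cover the spread among the arrays alone, and that spread may be technical. All arrays shared 1 slide, where Luc and KD2 alternated over positions A to F and KD1 took G, I and K. Slide position and KD1 thus cannot be told apart. The level of KDM5A is not analysed here.

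IGFs are growth and survival signals that act through the IGF1 receptor and, less strongly, through the insulin receptor, both tyrosine kinases that phosphorylate the substrates IRS1 and IRS2 and so recruit PI3-kinase. The IGF binding proteins are secreted and hold IGFs outside the cell, where they can block or prolong access to the receptor, and proteases that cut them set the ligand free. IGF2R, which is also the larger mannose 6-phosphate receptor, carries lysosomal enzymes and takes up IGF2 for degradation without signalling as a kinase.

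Intensities were background-corrected, quantile-normalized between arrays and put on the log2 scale, on which all levels and differences below are given. A probe was tested if its detection p-value was under 0.05 on at least 3 arrays, which held for 16164 probes and for 8 of the 12 probes here. Differences were tested with limma over all 16164 probes together, and a probe was called at a Benjamini-Hochberg adjusted p under 0.05. The number of probes detected ran from 15679 to 17538 on the Luc arrays, 14529 to 15110 on the KD1 arrays and 15370 to 15777 on the KD2 arrays. Every KD1 array thus had fewer than any other array, and the part of this in the results below was not tested. The 7 genes listed as typical of MDA-MB-231 were detected on all 9 arrays (VIM, CD44, ANXA1, CAV1, MSN, LGALS1 and AXL), while the estrogen and progesterone receptor genes ESR1 and PGR were detected on none. ERBB2 was detected on all 9. Of the MDA-MB-231 genes, CAV1 (-0.49) and AXL (-0.64) were called with KD1, and ANXA1 (-0.51), MSN (0.57) and LGALS1 (0.40) with KD2. The epithelial, leukocyte, fibroblast and endothelial lists had 1 gene each detected on all 9 arrays (EPCAM, CD68, PDGFRA and PECAM1), the adipocyte list none. EPCAM was called with both siRNAs (-0.50 and -0.50), as was CD68 (0.93 and 0.62). CD14 was called with KD1 (-1.14) and PDGFRB with KD2 (1.32). The mean level of 7 luminal markers ran from 7.70 to 7.78 on the Luc arrays, 7.34 to 7.53 on the KD1 arrays and 7.81 to 7.96 on the KD2 arrays, with members that moved differently. KRT8, KRT18, KRT19 and XBP1 were detected on all 9 arrays, GATA3 on 4, TFF1 on 1 and FOXA1 on none. With KD1, KRT19 (-0.61) and XBP1 (-0.81) fell, and with KD2, KRT8 (0.63) and KRT19 (0.60) rose while XBP1 (-0.69) fell. The part of these differences in the results below was not tested.

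The promoters of 5 genes whose levels differed with at least one siRNA are shown because the ARID domain of KDM5A is known to bind the motif CCGCCC. Each is the stretch of 250 bases before the start of the gene, 5′ to 3′ on the gene's own strand, from RefSeq on build GRCh38.p14. Capitals mark CCGCCC, the same motif read on the other strand (GGGCGG, which is also the GC box bound by SP1 factors) and TATAAA. The stretches are chr7:45921273-45921522, minus strand (IGFBP3), chr17:40443200-40443449, plus strand (IGFBP4), chr12:53097417-53097666, plus strand (IGFBP6), chr2:226799821-226800070, minus strand (IRS1) and chr6:159968832-159969081, plus strand (IGF2R).
IGFBP3 promoter: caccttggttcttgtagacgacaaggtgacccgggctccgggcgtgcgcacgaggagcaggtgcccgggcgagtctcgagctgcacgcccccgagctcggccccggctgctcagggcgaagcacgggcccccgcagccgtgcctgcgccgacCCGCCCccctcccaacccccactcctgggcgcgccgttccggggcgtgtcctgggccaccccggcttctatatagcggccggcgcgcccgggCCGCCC
IGFBP4 promoter: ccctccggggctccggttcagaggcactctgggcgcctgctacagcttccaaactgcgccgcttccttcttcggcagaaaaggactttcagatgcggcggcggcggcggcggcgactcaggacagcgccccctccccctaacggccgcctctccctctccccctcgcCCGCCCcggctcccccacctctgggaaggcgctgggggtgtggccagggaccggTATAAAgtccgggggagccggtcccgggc
IGFBP6 promoter: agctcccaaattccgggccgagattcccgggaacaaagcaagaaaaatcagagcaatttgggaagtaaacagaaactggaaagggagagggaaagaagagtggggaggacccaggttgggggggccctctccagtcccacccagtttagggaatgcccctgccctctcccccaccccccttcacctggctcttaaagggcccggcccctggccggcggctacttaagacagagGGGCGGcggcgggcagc
IRS1 promoter: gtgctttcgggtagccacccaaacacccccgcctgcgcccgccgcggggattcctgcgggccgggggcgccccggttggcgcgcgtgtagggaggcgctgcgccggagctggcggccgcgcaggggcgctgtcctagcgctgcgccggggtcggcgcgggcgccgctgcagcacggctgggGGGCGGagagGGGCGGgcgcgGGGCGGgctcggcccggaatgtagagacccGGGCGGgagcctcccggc
IGF2R promoter: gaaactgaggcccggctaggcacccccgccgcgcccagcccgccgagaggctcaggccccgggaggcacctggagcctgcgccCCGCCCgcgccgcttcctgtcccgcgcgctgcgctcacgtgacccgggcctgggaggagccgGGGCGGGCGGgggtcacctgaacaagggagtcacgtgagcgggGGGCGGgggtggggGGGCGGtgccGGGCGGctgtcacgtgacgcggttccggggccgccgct

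CCGCCC was counted on both strands, overlapping matches included. The IGFBP3 stretch held 2 matches, IGFBP4 and IGFBP6 held 1 each, IRS1 held 4 and IGF2R held 6. IGF1R had 2 matches, INSR 4 and IRS2 5. Of the 3 IGFBP2 entries, 2 held 1 match each. At least 1 match was found in 42.6% of all 35116 promoters of the same length and at least 4 in 7.63%. TATAAA was found in IGFBP4 alone among the 9 genes with an entry, starting 29 bases before the gene, and in 6.8% of all promoters. IGFBP7 had no entry. The 5 stretches shown consisted of G and C for 61.2% (IGFBP6) to 80.8% (IRS1) of their bases. The motif consists of G and C alone, and the shares over all promoters were not matched for G and C. A gene can have several entries among those promoters. Whether KDM5A binds any of these promoters was not tested.

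IGFBP3, the main IGF carrier of the circulation and a regulator of cell growth in its own right, was lower on every KD1 array than on any other array, by both of its probes. The brighter probe (ILMN_1746085) read 9.29, 9.00 and 9.04 on the Luc arrays, 6.24, 6.61 and 6.19 on the KD1 arrays and 8.79, 8.85 and 8.49 on the KD2 arrays. As deposited, before any correction, its intensities were 789, 739 and 628 in Luc, 169, 185 and 167 in KD1, and 586, 543 and 425 in KD2. KD1 and Luc differed by -2.76 (SE 0.17), a 6.78-fold lower level, from 9.11 ± 0.16 in Luc to 6.35 ± 0.23 in KD1 (SD, n = 3 arrays each). In such bulk samples, fewer cells that express a gene and less RNA per cell cannot be told apart. The dimmer probe (ILMN_2396875), annotated to another IGFBP3 transcript, read 8.22, 8.22 and 8.14 in Luc, 5.27, 6.69 and 5.70 in KD1 and 7.78, 7.85 and 8.24 in KD2. Its KD1 arrays spread more widely (SD 0.73) than its Luc arrays (SD 0.05), and KD1 and Luc differed by -2.31 (SE 0.30). Over the 9 arrays the probes had a Pearson correlation of 0.953, which mostly reflects the gap between KD1 and the other groups. Both probes were detected on every KD1 array but read near background there. The median intensity over all probes was 117 to 122 on the KD1 arrays. The dimmer probe had a deposited detection p of 0.0435 on KD1 replicate 1. On the normalized values that the authors deposited, the KD1 differences were -1.42 and -0.91, and without background correction they were -1.84 and -1.28. The size of the differences, and of the fold above, thus depends on the processing.

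With KD2 the IGFBP3 probes did not pass the test. The brighter probe had its 3 KD2 arrays below its 3 Luc arrays, with a difference of -0.40 (95% interval -0.76 to -0.03, adjusted p = 0.117). It passed on the deposited normalized values (-0.28, adjusted p = 0.0206) and without background correction (-0.33, adjusted p = 0.0248), the other alternatives spanning adjusted p-values up to 0.310. The dimmer probe overlapped between KD2 and Luc (-0.24, interval -0.90 to 0.43, adjusted p = 0.631). KD1 and KD2 differed by -2.36 (SE 0.17) on the brighter probe and by -2.07 (SE 0.30) on the dimmer one. These differences rest on the same KD1 arrays and are given without a test. The order of IGFBP3 levels was KD1, then KD2, then Luc, and the last pair did not differ by the test.

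IGFBP4, which binds IGFs and mostly holds back their action, fell with both siRNAs, and more with KD1. Its probe (ILMN_1665865) read 12.91, 12.64 and 13.14 on the Luc arrays, 10.11, 10.63 and 10.27 on the KD1 arrays and 12.26, 11.95 and 11.89 on the KD2 arrays. No 2 groups overlapped. The deposited intensities ran from 7496 to 8699 in Luc, from 1106 to 1527 in KD1 and from 3704 to 5663 in KD2. IGFBP4 was 5.91-fold lower with KD1 than in Luc (-2.56, SE 0.19, adjusted p = 5.25e-05) and 1.82-fold lower with KD2 (-0.87, SE 0.19, adjusted p = 0.00832). KD1 differed from KD2 by -1.70 (SE 0.19, adjusted p = 1.54e-04). The IGFBP3 probes are left out here, because the genes were partly chosen on their KD1 arrays. Among the other 6 tested probes, only that of IGFBP4 passed against Luc for KD1 and for KD2 while moving the same way. Of all tested probes, 5.10% did so. Both comparisons share the Luc arrays.

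IGFBP6, a binding protein that prefers IGF2, fell with KD1 and was not called with KD2. The Luc arrays of its probe (ILMN_1669362) read 9.75, 9.91 and 10.23, the KD1 arrays 8.81, 8.78 and 8.82, and the KD2 arrays 9.84, 10.14 and 9.95. The KD1 arrays lay closely together (8.80 ± 0.02, SD, n = 3) and below every other array. KD1 differed from Luc by -1.16 (SE 0.15, adjusted p = 0.00104), a 2.24-fold lower level, and from KD2 by -1.17 (SE 0.15, adjusted p = 4.10e-04). For KD2 and Luc the difference was 0.01 (interval -0.33 to 0.35, adjusted p = 0.973).

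IGFBP7, a secreted relative that binds IGFs weakly and is found in the matrix of blood vessels, moved in opposite directions with the siRNAs. Its probe (ILMN_2062468) read 12.35, 12.46 and 12.79 in Luc, 12.00, 11.56 and 11.75 in KD1 and 12.93, 13.33 and 13.27 in KD2. The groups did not overlap, with KD1 lowest and KD2 highest. IGFBP7 fell by 0.77 with KD1 (SE 0.18, adjusted p = 0.0159) and rose by 0.64 with KD2 (SE 0.18, adjusted p = 0.0262). Neither call held for every array left out in turn. Without Luc replicate 3 the KD1 call was lost (adjusted p = 0.0504), likewise without KD1 replicate 2 (0.0524). The KD2 call was lost without Luc replicate 1 (0.0877), Luc replicate 2 (0.0783), KD2 replicate 2 (0.0876) or KD2 replicate 3 (0.0802), and with no detection filter (0.0502), and over its alternatives the adjusted p ran up to 0.0877. KD1 differed from KD2 by -1.41 (SE 0.18, adjusted p = 3.32e-04), and that call held in all alternatives tried. Among all tested probes, 1.14% were called in opposite directions with the siRNAs.

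**Figure D1:**
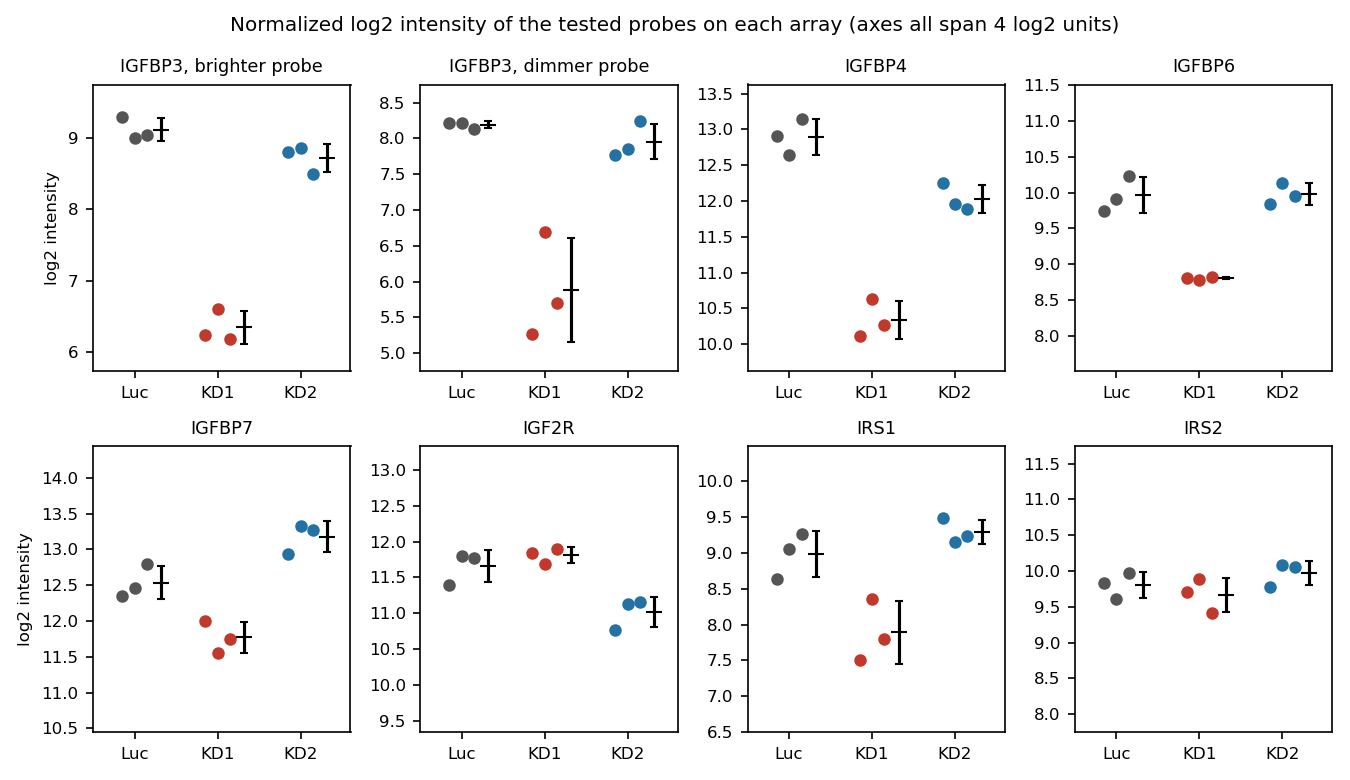
Normalized log2 intensity (vertical axes, each spanning 4 log2 units) of the 8 tested probes, with a point for each array of Luc, KD1 and KD2 and a bar at the mean with 1 SD (n = 3). The KD1 arrays lie below all others for both IGFBP3 probes, IGFBP4, IGFBP6, IGFBP7 and IRS1, while for IGF2R the KD2 arrays are lowest.

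IGFBP2, a binding protein often raised in tumours, was not detected on any array, its deposited intensities running from 97.6 to 118. IGFBP1 and IGFBP5, the remaining classical binding proteins, are no part of the group and were looked at beside it. IGFBP1, the neighbour of IGFBP3 on chromosome 7, read 6.36, 6.81 and 7.11 in Luc, 6.67, 5.64 and 6.10 in KD1 and 6.81, 6.70 and 7.08 in KD2. IGFBP1 was not called with KD1 (-0.63, adjusted p = 0.143) or KD2 (0.10, adjusted p = 0.839), and its KD1 and Luc arrays overlapped. IGFBP5, the neighbour of IGFBP2 on chromosome 2, was detected on no array by either of its probes.

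IGF2R was the 1 receptor of the group that could be tested, and it fell with KD2. Its probe (ILMN_1807662) read 11.40, 11.80 and 11.77 on the Luc arrays, 11.84, 11.69 and 11.90 on the KD1 arrays and 10.77, 11.12 and 11.15 on the KD2 arrays. All KD2 arrays lay below the others, and the KD1 and Luc arrays were mixed. KD2 was 1.56-fold lower than Luc (-0.64, SE 0.16, adjusted p = 0.0181), and KD1 lay above KD2 by 0.80 (SE 0.16, adjusted p = 0.00520). For KD1 and Luc the difference was 0.16 (interval -0.20 to 0.51, adjusted p = 0.570). Without Luc replicate 2 the KD2 call was lost (adjusted p = 0.0662), as it was without Luc replicate 3 (0.0541) or KD2 replicate 1 (0.0620), in a range over its alternatives that ended at 0.0662.

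IGF1R, the receptor that carries most IGF signals, and INSR, the insulin receptor, were near background and were not tested. The IGF1R probe (ILMN_1675048) was detected on KD1 replicate 3 alone (deposited detection p of 0.0382), and its deposited intensities ran from 104 to 138. The INSR probe (ILMN_1670918) was detected on Luc replicate 2 alone (deposited detection p of 0.0171), with intensities from 112 to 155. Each gene had 1 probe, so these readings say only that the probe was not above background on the other arrays.

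**Figure D2:**
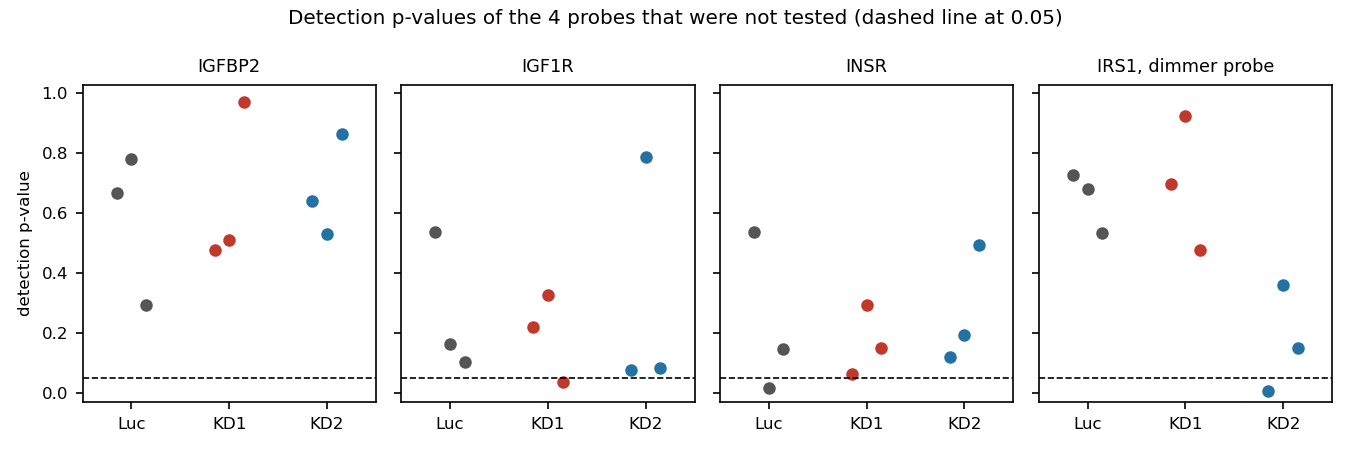
Detection p-value (vertical axis) of the 4 probes that were not tested, with a point for each array of Luc, KD1 and KD2 and a dashed line at 0.05. IGFBP2 has no array under the line, and IGF1R, INSR and the dimmer IRS1 probe have 1 each.

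IRS1, the docking protein that links both receptors to PI3-kinase, fell with KD1. Its brighter probe (ILMN_1759232) read 8.64, 9.06 and 9.26 in Luc, 7.50, 8.36 and 7.81 in KD1 and 9.49, 9.15 and 9.24 in KD2. Every KD1 array lay below every other array, and Luc and KD2 overlapped. IRS1 was 2.14-fold lower with KD1 than in Luc (-1.10, SE 0.23, adjusted p = 0.0107) and differed between KD1 and KD2 by -1.40 (SE 0.23, adjusted p = 0.00171). On the deposited normalized values these differences were smaller, -0.69 and -0.92, and still called. With KD2 it was not called (0.31, interval -0.21 to 0.82, adjusted p = 0.395). The dimmer IRS1 probe (ILMN_1883348) was detected on KD2 replicate 1 alone (deposited detection p of 0.00791) and was not tested.

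IRS2, the second main substrate, was not called in any comparison. The Luc arrays of its probe (ILMN_2083469) read 9.83, 9.61 and 9.98, the KD1 arrays 9.71, 9.88 and 9.41, and the KD2 arrays 9.78, 10.08 and 10.06. The groups overlapped in all 3 comparisons. The differences were -0.13 for KD1 (interval -0.50 to 0.23, adjusted p = 0.642), 0.17 for KD2 (interval -0.20 to 0.54, adjusted p = 0.519) and -0.30 between KD1 and KD2 (interval -0.67 to 0.06, adjusted p = 0.211).

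The replicates of KD1 did not all stand in the same order. KD1 replicate 2 was the highest KD1 array for both IGFBP3 probes, IGFBP4, IRS1 and IRS2, and the lowest for IGFBP6, IGFBP7 and IGF2R. The widest KD1 spread was that of the dimmer IGFBP3 probe (SD 0.73) and the narrowest that of IGFBP6 (SD 0.02).

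The IGFBP3 probes, on which the genes were partly chosen, are left out of the counts that involve KD1. Of the other 6 tested probes, 4 were called with KD1 against Luc, all lower, where 15.5% of all 16164 tested probes were called (6.74% higher and 8.74% lower). With KD2 against Luc, 3 of all 8 were called, 2 lower and 1 higher, against 21.5% of all probes (10.4% higher and 11.1% lower). Without Luc replicate 2 the count was 1, against 15.2% of all probes in that fit. Between KD1 and KD2, 5 of the 6 were called, 4 lower and 1 higher, against 25.8% of all probes (12.4% higher and 13.3% lower). Arrays of the groups did not overlap for 4 of the 6 probes with KD1 (34.3% of all), 4 of the 8 with KD2 (39.3%) and 5 of the 6 between the siRNAs (41.1%). The median difference with KD1 was -0.93 over the 6 probes. With KD2 it was -0.11 over the 8 and 0.09 over the same 6. For all tested probes it was 0.00 in both. All 8 tested probes were detected on all 9 arrays. In a fit of probes detected on all 9 alone, 24.3% were called with KD1, 33.4% with KD2 and 36.5% between the siRNAs. Since the genes were chosen with results known, nothing further is read from these counts.

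**Figure D3:**
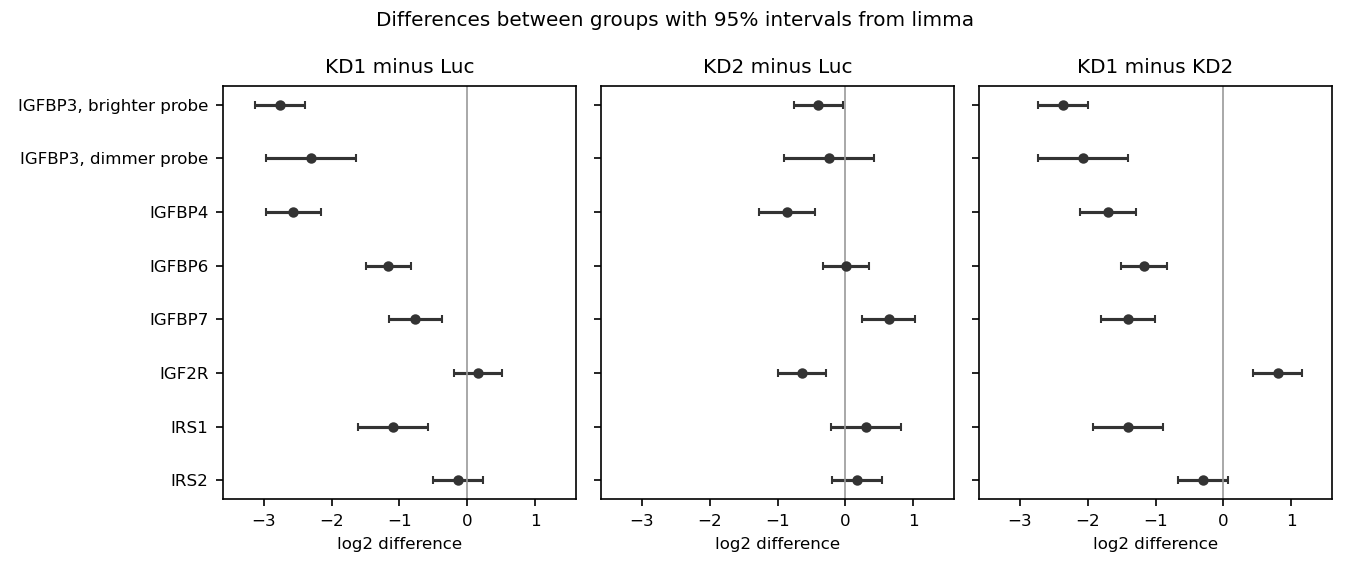
Differences in log2 intensity (horizontal axes) for KD1 minus Luc, KD2 minus Luc and KD1 minus KD2, with a point for each of the 8 tested probes and its 95% interval from limma. The IGFBP3 intervals that involve KD1 are drawn as a description and are no test, because the genes were partly chosen on those arrays. With KD1 the IGFBP3 and IGFBP4 probes lie between -2.76 and -2.31, while with KD2 IGFBP4 (-0.87), IGF2R (-0.64) and IGFBP7 (0.64) were called.

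The genes whose levels followed IGFBP3 most closely were taken from 526 tested probes with 1 symbol. Each had an absolute difference of at least 1 between KD1 and Luc. Probes of IGFBP3 itself and of symbols starting with LOC were left out. The 5 with the highest Pearson correlation with the brighter IGFBP3 probe over the 9 arrays were TAP2, a peptide transporter gene of antigen presentation (0.992), RNF217, a ubiquitin ligase gene (0.990), CD55, a complement inhibitor gene (0.989), IFIT2, an interferon-induced gene (0.989), and POLR1D, an RNA polymerase subunit gene (0.988). Their differences with KD1 ran from -2.01 for TAP2 to -1.23 for POLR1D, and with KD2 from -0.29 for IFIT2 to -0.08 for TAP2. The probes were picked by their KD1 difference, and the arrays share 3 groups and 1 normalization. The correlations thus describe mainly a low level in KD1.

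The other genes of the insulin and IGF pathway came from 13 lists of 171 genes, of which 160 were on the array under these symbols and 119 were tested, each by its brightest tested probe. With KD1, 6 of the 119 rose and 17 fell (19.3% called), where 15.5% of all tested probes were called. With KD2 20 rose and 24 fell (37.0% called), where 21.5% of all tested probes were. The counts by list below stand against these same shares. In a fit of probes detected on all 9 arrays alone the shares were 24.3% and 33.4%, though not all 119 genes were detected on all 9. The KD1 count of 23 was 15 without Luc replicate 1, 14 without Luc replicate 2 and 14 without KD1 replicate 3. In those fits 11%, 10.4% and 10.9% of all tested probes were called. The KD1 count was also 35 without background correction (21.3% of all tested probes called) and 14 without the detection filter (3.78% of all probes). The median difference over the 119 genes was -0.04 with KD1 and 0.07 with KD2.

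None of the 7 ligand genes was detected on enough arrays to be tested. IGF1 was detected on 1 array by one of its probes and IGF2 on 1 array by its probe of the highest mean, and INS on none. Among 9 tested genes of IGFBP proteases and their inhibitors, 2 fell with KD1, and with KD2 4 rose and 1 fell. PAPPA, the protease that cuts IGFBP4, was named after its values were seen. It rose with KD2 by 0.65 (adjusted p = 0.00972) from readings of 5.63, 5.48 and 5.93 in Luc to 6.43, 6.29 and 6.28 in KD2. The PAPPA probe was dim, since the lowest readings of any detected probe were 5.02 to 5.15 on the Luc arrays. On the KD2 arrays these lowest readings were 5.14 to 5.18. STC1, which encodes a stanniocalcin that inhibits PAPPA, rose by 0.82 and HTRA1, a secreted serine protease gene, by 0.72 with KD2. With KD1 the PAPPA (-0.27), STC1 (0.16) and HTRA1 (-0.16) differences were not called. MMP9, a gelatinase gene, rose by 2.33 with KD2. With KD1 it was detected on no array, which put it at least 2.12-fold below Luc. ADAM9, a membrane protease gene, changed by -0.96 with KD1 and -0.77 with KD2.

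Of 5 tested genes of IGFBP3 receptors and nuclear partners, TGFBR2, a TGF-beta receptor gene, fell with KD1 (-1.17). A second TGFBR2 probe was called lower as well, and another was not called (0.04). TMEM219, which encodes a receptor for IGFBP3, rose with KD2 (0.68). In the CCN family of matrix-associated signalling proteins, some of which once carried IGFBP names, 2 of 3 tested genes fell with KD1 and 1 with KD2. CCN1 changed by -0.50 and -1.10 and CCN2 by -0.65 with KD1, with its second probe at -0.79.

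Among 19 tested receptor relatives and adaptors, 2 fell with KD1 and 4 with KD2, and none rose by the test. PTPN2, a phosphatase that acts on the insulin receptor, changed by -0.84 and -1.40, while its dimmer tested probe gave 0.02 and 0.05 and was not called. With KD2, GRB10, an adaptor gene that restrains the receptors, fell by 0.69 (second tested probe -0.98). SOCS2, a signal suppressor gene, fell by 0.82 and PTPN11, a phosphatase gene, by 0.54. Of 13 tested PI3-kinase and AKT genes, 1 was called with KD1 and 5 with KD2. PIK3CD, a catalytic subunit gene, rose with both (0.84 and 0.90), and TRIB3, whose protein binds AKT, changed by -2.66 with KD2. In the mTOR group of 19 tested genes, EIF4EBP2, a translation repressor gene, was the 1 gene called with KD1 (-0.55), while with KD2 6 fell and none rose. MTOR changed by -0.91 with KD2, DDIT4, an mTOR inhibitor gene, by -0.97, SESN2 by -0.92 and EIF4EBP1 by -0.92.

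Of 10 tested AKT substrates and FOXO genes, KD1 raised 3 and lowered 2, and KD2 raised 3. FOXO3 rose by 0.89 with KD1, also on a second probe (0.81), while FOXO1 changed by -0.77 and GSK3B, a kinase that AKT inhibits, by -0.95. GYS1, the glycogen synthase gene, rose by 0.61 with KD1 and 0.99 with KD2. Of 14 tested genes known as FOXO targets, 2 went up and 2 down with KD1, and 5 up and 3 down with KD2. FBXO32, a ubiquitin ligase gene, rose by 1.46 and 0.90. GADD45A rose by 0.53 with KD1 and fell by 0.88 with KD2, with its second probe at 0.67 and -1.09. KLF4 changed by -2.63 with KD2, while its second, dimmer probe was not called (-0.45). Of the RNA-binding IGF2BP family, which binds IGF2 messages among others, IGF2BP3 changed by -1.05 and -0.74, and IGF2BP2 by -1.10 with KD2.

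Of the sorting partners of IGF2R, none was called with KD1, where limma called 0 of 12 tested genes (2 had an unadjusted p under 0.05). With KD2 4 rose and 3 fell. M6PR, the other mannose 6-phosphate receptor gene, changed by -0.65 with KD2 (adjusted p = 0.00578), next to -0.64 for IGF2R, and differed between KD1 and KD2 by 0.64. GNPTAB and GNPTG, subunit genes of the enzyme that makes the mannose 6-phosphate tag, rose by 1.19 and 0.68 with KD2. Among 12 tested genes of receptor processing and degradation, 4 fell with KD1 and 2 with KD2. CAVIN1 and CAV1, coat genes of caveolae, where insulin receptors gather, changed by -0.74 and -0.49 with KD1, and a second CAV1 probe was not called (-0.49, adjusted p = 0.0650). ADAM17, a sheddase gene, changed by -0.84 and -0.60, and CUL7, a ubiquitin ligase gene that acts on IRS1, by -0.79 with KD1 on a dim probe. Of the other ADAM17 probes that were tested, neither was called with KD1 and 1 was called with KD2.

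**Figure D4:**
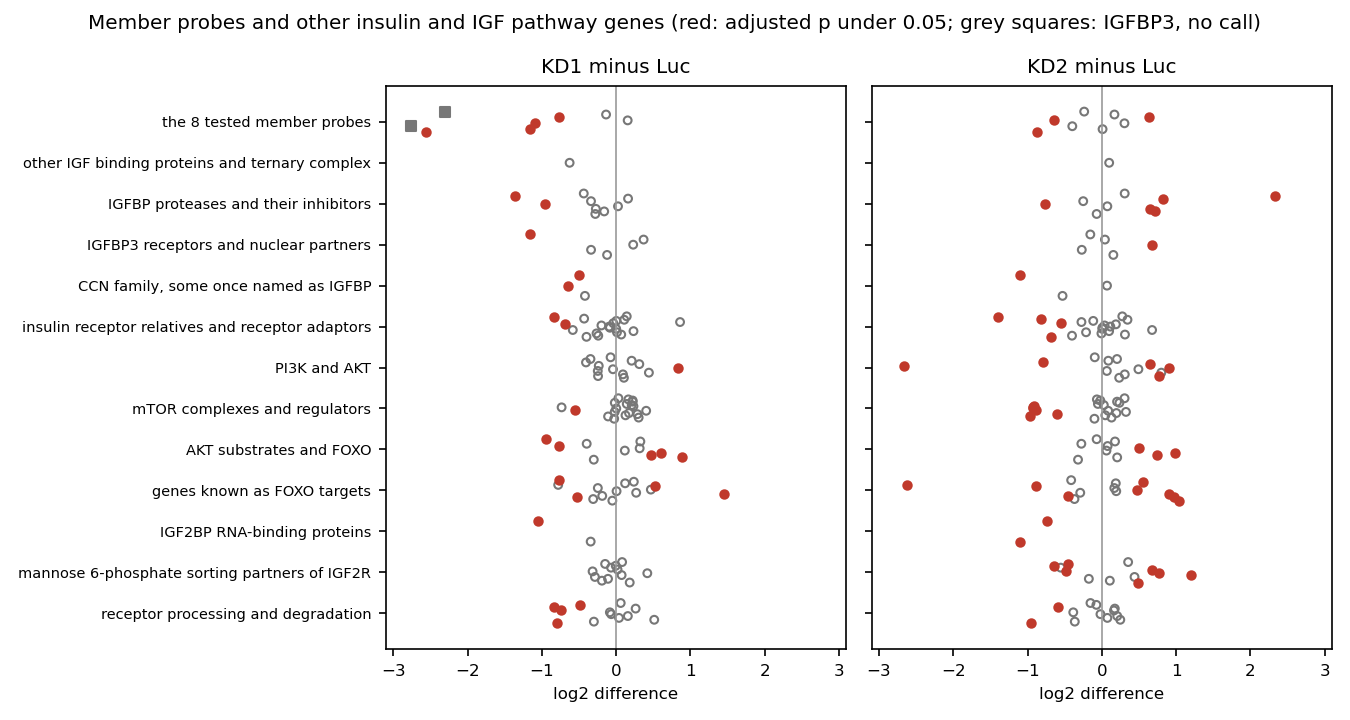
Differences in log2 intensity (horizontal axes) with KD1 and KD2 against Luc for the 8 tested member probes and for the 119 other tested genes of the pathway, a point each, by list. Red points had an adjusted p under 0.05, open points did not, and grey squares are the IGFBP3 probes with KD1, shown without a call because the genes were partly chosen on them. In the KD2 panel TRIB3 (-2.66), KLF4 (-2.63) and MMP9 (2.33) lie farthest from 0.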

How the data were processed

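RNA from 9 samples was read on Illumina bead arrays. The authors deposited probe intensities and detection p-values without normalization, as the file's columns show, and a second table of log2 values. That deposited log2 table has the same median, 7.60, on every array, and lumi is named per the submitters' processing notes, with no version given in the sources used here. Here the intensities were corrected for background from the detection p-values (offset 16), quantile-normalized and put on the log2 scale with limma 3.58.1 in R 4.3.3. Probes with a detection p-value under 0.05 on at least 3 arrays were fitted with a mean per group, and p-values were adjusted by the Benjamini-Hochberg method over all tested probes. Of 48799 probes, 28094 had 1 gene symbol, 13 several and 20692 none. For 28055 probes the symbol was taken from RefSeq by the gene identifier, whether or not it changed. The fit was tested on simulated data. The number of arrays limits the precision.

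The members, the pathway lists and the tests were chosen with earlier results of these data known. All member probes are named, and of each pathway list up to 4 called genes per comparison with the largest difference were eligible, besides the ligands IGF1, IGF2 and INS and the binding proteins IGFBP1 and IGFBP5. Alternatives changed the starting values, background correction, normalization, detection filter, replicate block, variance model, fold threshold and the arrays in the fit. No pair of arrays held identical values.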

Additional observations from a re-analysis of the deposited data

How the results depend on the processing

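Over 24 member results and 477 alternative values, 465 stayed on their side of the threshold, 10 lost the call and 2 gained it. Of the 465, 461 kept their direction. The other 4 belong to IGFBP6 with KD2, never called: 0.01 became -0.11 under median scaling, -0.10 without Luc replicate 1, -0.01 without Luc replicate 2 and -0.07 without KD2 replicate 2. The member results and counts of member probes in this paragraph include IGFBP3. Its differences between KD1 and the other groups kept their call throughout. They rest on the KD1 arrays by which the genes were partly chosen, so their stability is no support for them. The lost calls were those of IGFBP7 and IGF2R given above, and the gained ones were IGFBP3 with KD2 on the brighter probe. Demanding an absolute log2 difference of at least 1 left 0 of 3 member probes with KD2, 0 of 1 with the same sign by both siRNAs, and 4 of 23, 8 of 44 and 12 of 36 other pathway genes with KD1, with KD2 and between the siRNAs. Over all tested probes, 3.70%, 4.57% and 6.78% passed that demand. The count of member probes with the same sign by both siRNAs was 2 on the deposited normalized values and 2 without background correction. The count of other pathway genes with KD1 was 35 without background correction (21.3% of all tested probes called) and 14 without the detection filter (3.78%). Leaving out each array in turn gave 5 to 6 member probes with KD1, 1 to 3 with KD2, 7 between the siRNAs and 1 with the same sign, and 14 to 21, 35 to 43 and 32 to 35 other pathway genes. Over all tested probes the shares called in those fits were 10.4% to 15.4%, 15.2% to 22.1% and 20.6% to 26.5%. The causes were not tested. Arrays with the same replicate number had correlations of their deviations from -0.018 to 0.110, and 4 of 9 arrays correlated best with their own number, so that the numbers were not taken as pairs. With the replicate block, the counts were 6, 3, 7 and 1 member probes and 22, 40 and 34 other genes, and no member call changed. The block gave 14%, 20.3% and 24.2% called over all tested probes. Median scaling over all probes put the median difference of the tested probes at -0.19, -0.09 and -0.08 (0.00, 0.00 and 0.01 with quantile normalization) and made 13.8%, 31.4% and 33.3% of calls higher, against 43.5%, 48.2% and 48.2%. Median scaling over tested probes, chosen after seeing the data, put it at 0.10, 0.07 and 0.05 with 56.8%, 56.6% and 50.6% of calls higher and gave 6, 3 and 7 member probes. In that setting 16.3%, 22.6% and 25.3% of all tested probes were called. Over all settings the share of all probes called ranged from 3.70% to 24.3% with KD1, 4.57% to 33.4% with KD2 and 6.75% to 36.5% between the siRNAs. IGFBP2, IGF1R and INSR were too close to background to be compared.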
